A study of Mus musculus with 2 samples.

Results

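Metallothioneins and zinc transporters set how much free zinc a hepatocyte holds, and 8 genes of this system were followed in mouse liver after endotoxin injury. They are the metallothionein genes Mt1 and Mt2, the zinc sensor gene Mtf1, the zinc importer genes Slc39a14, Slc39a8 and Slc39a4, and the zinc transporter genes Slc30a1 and Slc30a7. The 8 symbols were matched through the GENCODE annotation of GRCm38 to 8 of 52636 Ensembl genes listed in the count tables. Both groups were C57BL/6 mice of 9 weeks that had received D-galactosamine (GalN, 800 µg per g body weight) together with lipopolysaccharide (LPS, 100 ng per g) 6 h before the liver was taken. One group was wild type (WT) and the other was labelled GBP5-/- (KO), a genotype without guanylate-binding protein 5, an interferon-induced GTPase. RNA of 4 livers was pooled per genotype and sequenced as 1 library. The 2 libraries therefore hold no replicates, no p-value is given, and every interval below is a 95% interval for counting error alone. No untreated liver was analysed here, so nothing below measures the response to GalN and LPS itself.

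Metallothioneins are small cysteine-rich proteins that bind zinc and copper. MTF1 is a transcription factor that senses zinc and drives metallothionein genes through metal response elements in their promoters. ZIP proteins (Slc39a genes) bring zinc into the cytosol, and ZnT proteins (Slc30a genes) take it out of the cytosol, across the cell surface or into organelles. In the liver, inflammation with interleukin-6 and glucocorticoids is known to induce metallothioneins and the importer ZIP14, and the liver then takes up zinc from plasma.

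Reads counted in genes totalled 19864848 for WT and 15750875 for KO. Levels are given as CPM, counts scaled to a common total. For ratios, a gene without a read in 1 library was set there at a floor of 3 reads. That floor is 0.151 CPM in WT and 0.190 in KO. Gbp5 itself had 3211 reads in the WT pool and 873 in the KO pool, or 162 and 55.4 CPM, and was 2.92-fold lower in KO (2.71 to 3.15). Where the allele is disrupted is not given in the sources used here, so the remaining reads show lower Gbp5 RNA and not the loss of the protein. Hepatocyte markers identified the tissue, with all 8 genes of that list read in both libraries and a summed level of 59893 CPM in WT and 94995 in KO. Markers of Kupffer cells, the resident macrophages, went the other way, from 1345 to 541 CPM. All 9 were lower in KO, as were 54.1% of all genes tested (those at 1 CPM or more in either library). In whole liver, fewer cells of a type and less RNA per cell cannot be told apart. Genes were compared between libraries as the log2 ratio of CPM, among 14062 genes at 1 CPM or more in either library.

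In the KO library 5 of the 8 genes stood higher and 1 lower by more than counting error, mostly by small amounts, and the other 2 could not be placed on either side. Mt1, Mt2, Slc39a14, Slc39a4 and Slc30a7 had a ratio of KO to WT whose interval lay above 1, as did 26.7% of all genes tested. Slc39a8 alone had an interval below 1, as did 36.5% of all genes tested. The interval of Mtf1 and that of Slc30a1 included 1. In sign, 6 of the 8 were above 0, against 45.9% of all genes tested, and 2 were below 0, against 54.1%. The median log2 difference of the 8 was 0.23, and that of all genes tested was -0.065. At 2-fold, only Mt2 was higher, on 14 and 23 reads, against 4.63% of all genes tested, and none was lower, against 12.4%. Slc30a1 lay under 1 CPM in both libraries and was thus not among the genes tested. Of the 7 genes that were, 6 were above 0 and 1 below, with a median of 0.28. Mt2 reached 1 CPM in KO alone, so its sign among the 7 followed from that filter. Above this level in both libraries were 6 of the 8 genes. Without Mt2, whose reads are in doubt as described next to its values, 4 of 7 genes had an interval above 1 and 1 below, and the median was 0.18.

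**Figure D1:**
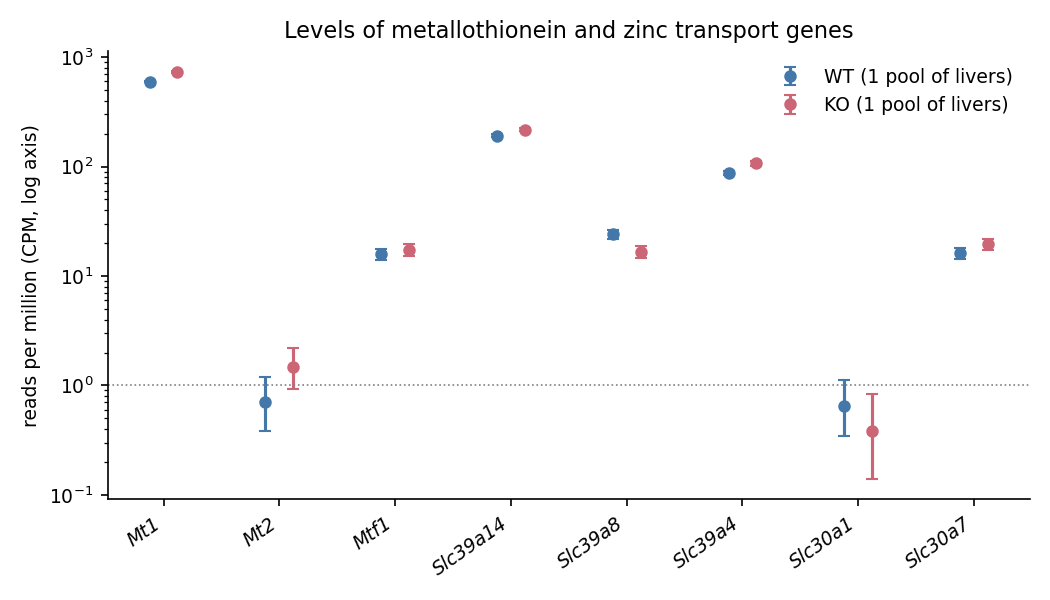
Level of each gene in the WT and KO pools, in CPM on a log axis; bars are exact 95% Poisson intervals for counting error and the dotted line marks 1 CPM. Mt1 lies at 597 and 730 CPM, whereas Mt2 and Slc30a1 lie near or under 1 CPM.

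Mt1 was the most abundant of the 8 and took 64.1% of their reads in WT and 65.9% in KO. The gene (ENSMUSG00000031765) lies at chr8:94179082-94180327 on the plus strand of GRCm38. It had 11861 reads in the WT pool and 11500 in the KO pool, or 597 CPM (586 to 608) and 730 CPM (717 to 744). That placed it at rank 203 of all genes by CPM in WT and rank 164 in KO. The ratio of KO to WT was 1.22 (1.19 to 1.25), a log2 difference of 0.29. The counting intervals of the 2 libraries do not overlap, but the spread between pools of livers is unknown. A difference of this size was common among abundant genes: of 1145 genes at 100 CPM or more in both libraries, 122 lay within 0.05 of the log2 difference of Mt1. The 8 hepatocyte markers had a median log2 difference of 0.39, and their part in the difference of Mt1 was not tested.

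Mt2 (ENSMUSG00000031762, chr8:94172664-94173568, plus strand) had 14 reads in the WT pool and 23 in the KO pool, or 0.705 CPM (0.385 to 1.18) and 1.46 CPM (0.926 to 2.19). Its neighbour and close paralogue Mt1 thus had 847 times as many reads in WT and 500 times as many in KO. Per kilobase of exon, Mt1 had 400 times the reads counted for Mt2 in WT and 236 times in KO. The ratio of KO to WT for Mt2 was 2.07 (1.02 to 4.35), and the intervals of its levels overlap between libraries. The annotation bears on how these reads were counted. Of the 588 exonic bases of Mt2, 432 are also exon of Gm45774, an antisense gene on the other strand, which is a cover of 73.5%. Gm45774 is a row of the same tables and had 58 reads in the WT pool and 57 in the KO pool. A read that touches exons of 2 genes is dropped by HTSeq in its default mode when strand is ignored, and the strand setting of the counting is not given in the sources used here. Over all protein-coding genes, the highest class of such cover held almost no reads: of 57 protein-coding genes with over 90% of their exonic bases under exons of the opposite strand, all had 0 reads in WT and 55 had 0 reads in KO, with at most 1 read in the others. In the class of Mt2, from 50% to 90% cover, 26.5% of 151 genes had 0 reads in WT and 29.8% in KO, not more than the 32.4% in WT among 16791 genes without such cover, although the median gene had 7 reads in WT against 26. The part of the overlap in the low count of Mt2 was not tested. If strand was ignored, reads in the shared bases could not be assigned to either gene. The 14 and 23 reads are thus in doubt as a measure of the level of Mt2, and its 2-fold difference rests on them.

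**Figure D2:**
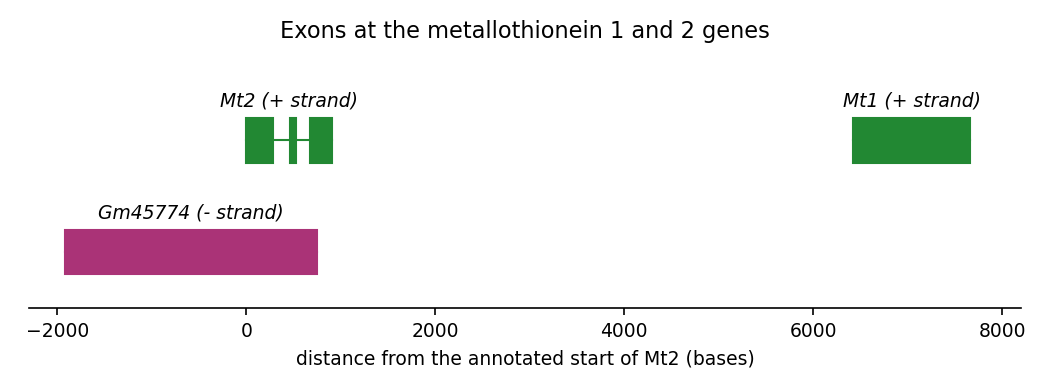
Exons of Mt2, of the antisense gene Gm45774 and of Mt1 (all transcripts of a gene merged), drawn by distance in bases from the annotated start of Mt2. The exon of Gm45774 covers 432 of 588 exonic bases of Mt2 and none of Mt1.

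**Figure D3:**
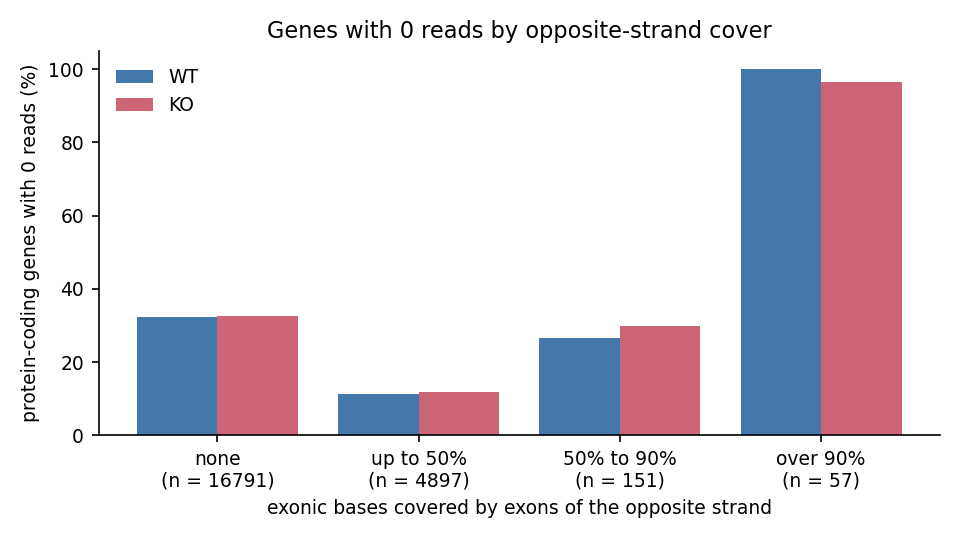
Share of protein-coding genes with 0 reads in WT and KO, by the share of exonic bases that exons of the opposite strand cover; the number of genes is under each pair of bars. The share is 100% in WT and 96.5% in KO in the highest class; Mt2, at 73.5% cover, falls in the class from 50% to 90%, where the median gene had 7 reads in the WT pool and 4 in the KO pool.

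MTF1 acts through metal response elements, so the windows before the annotated starts of the 2 metallothionein genes were searched for matches to them. Whether these windows hold the elements through which MTF1 acts was not tested. The sequences come from RefSeq (GRCm38.p6) and run 5′ to 3′ up to the annotated transcription start. The Mt1 window stops 7 bases short of the RefSeq start, where its GENCODE first exon begins. Capitals mark matches to the core of the element, searched on both strands as TGCACNC and TGCGCNC, which do not overlap each other here. The Mt1 window is chr8:94178839-94179081 and the Mt2 window chr8:94172368-94172617, both on the plus strand.
Mt1: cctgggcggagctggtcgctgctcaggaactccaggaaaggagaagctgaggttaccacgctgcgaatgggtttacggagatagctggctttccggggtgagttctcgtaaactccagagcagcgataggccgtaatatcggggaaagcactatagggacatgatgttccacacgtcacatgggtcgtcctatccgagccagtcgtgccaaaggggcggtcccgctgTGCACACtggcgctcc
Mt2: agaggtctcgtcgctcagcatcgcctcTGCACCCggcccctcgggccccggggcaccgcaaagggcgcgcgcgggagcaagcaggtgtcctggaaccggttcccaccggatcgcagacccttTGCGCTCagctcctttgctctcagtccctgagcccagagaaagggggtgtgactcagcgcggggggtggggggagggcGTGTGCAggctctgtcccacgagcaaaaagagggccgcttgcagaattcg
The 250 bases before the RefSeq start of Mt2 held 3 matches, and 1.26% of 32851 such windows over all genes hold 3 or more. The Mt1 window held 1 match, and 21.4% of windows hold at least 1. A single match was also found for Slc30a1 and in the second of 2 windows of Slc39a8, and none for Mtf1 or Slc30a7. Only 6 of the 8 genes had a window, and Slc39a14 and Slc39a4 were not searched. Bases after an annotated start were not searched. The merged exons of Mt1 form a single block of 1246 bases, so matches before any start inside that block are not counted. The matches in these windows therefore do not rank the promoters of Mt1 and Mt2. A match is a run of letters, not a measured site, and binding was not measured here.

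The remaining metallothionein genes were hardly read. Mt3, a form best known from brain, had 8 reads in the WT pool and 7 in the KO pool, a ratio of 1.10 (0.341 to 3.48). Mt4, a form of stratified epithelium, had 0 reads in WT, with an interval up to 0.186 CPM, and 1 read in KO.

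Mtf1, the zinc sensor of the system, differed by less than counting error. The gene (chr4:124802104-124849800, plus strand) had 313 reads in the WT pool and 273 in the KO pool, or 15.8 CPM (14.1 to 17.6) and 17.3 CPM (15.3 to 19.5). The ratio was 1.10 (0.932 to 1.30), so the interval reaches from slightly lower to 1.30-fold higher. Opposite-strand exons of 1110065P20Rik cover 721 of its exonic bases, or 8.09%.

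The importers did not share a direction. Slc39a14 encodes ZIP14, the importer that carries zinc, and also iron and manganese, into hepatocytes during inflammation. It lies at chr14:70303469-70351425 on the minus strand and had 3782 reads in the WT pool and 3406 in the KO pool, or 190 CPM (184 to 197) and 216 CPM (209 to 224). Its ratio of KO to WT was 1.14 (1.08 to 1.19). Slc39a4 encodes ZIP4, known as the zinc importer of intestinal epithelium, and lies at chr15:76612383-76617384 on the minus strand. It had 1726 reads in the WT pool and 1687 in the KO pool, or 86.9 CPM (82.8 to 91.1) and 107 CPM (102 to 112), a ratio of 1.23 (1.15 to 1.32). For both genes the intervals of the levels do not overlap and KO is the higher library.

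Slc39a8 encodes ZIP8, an importer of zinc and manganese that is related to ZIP14 and found in many cell types, macrophages and endothelium included. The gene (chr3:135825279-135888572, plus strand) had 477 reads in the WT pool and 260 in the KO pool, or 24.0 CPM (21.9 to 26.3) and 16.5 CPM (14.6 to 18.6). It was 1.45-fold lower in KO (1.25 to 1.70), opposite in sign to Slc39a14. Per kilobase of exon, Slc39a14 had 5.76 times the level of Slc39a8 in WT and 9.52 times in KO. Beside Slc39a8, the summed level of 9 Kupffer cell markers was 2.49-fold lower in KO, and that of 8 T and NK cell markers 2.11-fold lower. Gzmb, at 46.9 CPM in WT and 19.2 in KO, made up most of the T and NK cell sum of 63.0 and 29.8. All 7 T and NK cell markers that reached 1 CPM were below 0 (54.1% of all genes tested). Cd3e (1.36 CPM in WT and 0.889 in KO) and Klrb1c (1.06 and 0.317) reached 1 CPM only in WT. Their signs thus followed from that filter. Of the 7, 4 had an interval below 1 (36.5% of all genes tested) and 3 had one that included 1. The 7 sinusoidal endothelial markers summed to a 1.43-fold lower level, but their median log2 difference was -0.083, near that of all genes, with 3 intervals below 1, 3 that included 1 and 1 above. Their part in the difference of Slc39a8 was not tested.

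Beside Slc39a4, intestinal markers were looked at in the same way. The 12 genes of that list summed to 56.8 CPM in WT and 83.7 in KO. The 5 at 1 CPM or more in either library were all higher in KO, as were 45.9% of all genes tested. Among them, Spink4 reached 1 CPM only in KO (0.0503 CPM in WT and 6.22 in KO), so its sign followed from that filter. Of the 12, Cdx2, Muc2, Alpi and Rbp2 had 0 reads in both libraries, and Lct, Sis and Cdx1 had 0 reads in WT and 1 or 2 in KO. The largest differences, singled out after the values were seen, were Spink4, a goblet cell gene, with 1 read in WT and 98 in KO, and Vil1, with 25 and 76. The 7 cholangiocyte markers summed to 152 CPM in WT and 215 in KO, and 6 of 7 were above 0 (45.9% of all genes tested). Of their intervals 3 lay above 1 (26.7% of all genes tested), 1 lay below (36.5%) and 3 included 1. Cftr reached 1 CPM only in KO (0.906 CPM in WT and 1.02 in KO), so its sign followed from that filter. Krt19 went from 11.5 CPM in WT to 48.7 in KO, and Sox9 from 53.7 to 38.1. The 12 pancreatic acinar markers summed to 26.6 CPM in WT and 40.3 in KO, with 7 of them at 0 in both libraries. Their sum rested on Cela1, with 521 reads in WT and 328 in KO, and on Ctrb1, with 0 and 297. Hepatocyte markers were also mostly higher in KO, with 7 of 8 above 0 (45.9% of all genes tested). The part of these cell types in the difference of Slc39a4 was not tested.

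The 2 ZnT genes were far apart in level. Slc30a7 encodes ZnT7, which loads zinc into the early secretory pathway. It lies at chr3:115938973-116007406 on the minus strand and had 319 reads in the WT pool and 307 in the KO pool, or 16.1 CPM (14.3 to 17.9) and 19.5 CPM (17.4 to 21.8), which overlap. The ratio was 1.21 (1.03 to 1.42). Antisense pseudogenes cover 16.0% of its exonic bases. Slc30a1 encodes ZnT1, the zinc exporter of the cell surface and, like Mt1, a known target of MTF1. The gene (chr1:191906767-191913247, plus strand) had 13 reads in the WT pool and 6 in the KO pool, or 0.654 CPM (0.348 to 1.12) and 0.381 CPM (0.140 to 0.829). Its ratio of 0.582 had an interval from 0.181 to 1.64, so a difference in either direction was not detectable at this depth. An antisense gene covers 8.92% of the exonic bases of Slc30a1, far less than for Mt2.

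**Figure D4:**
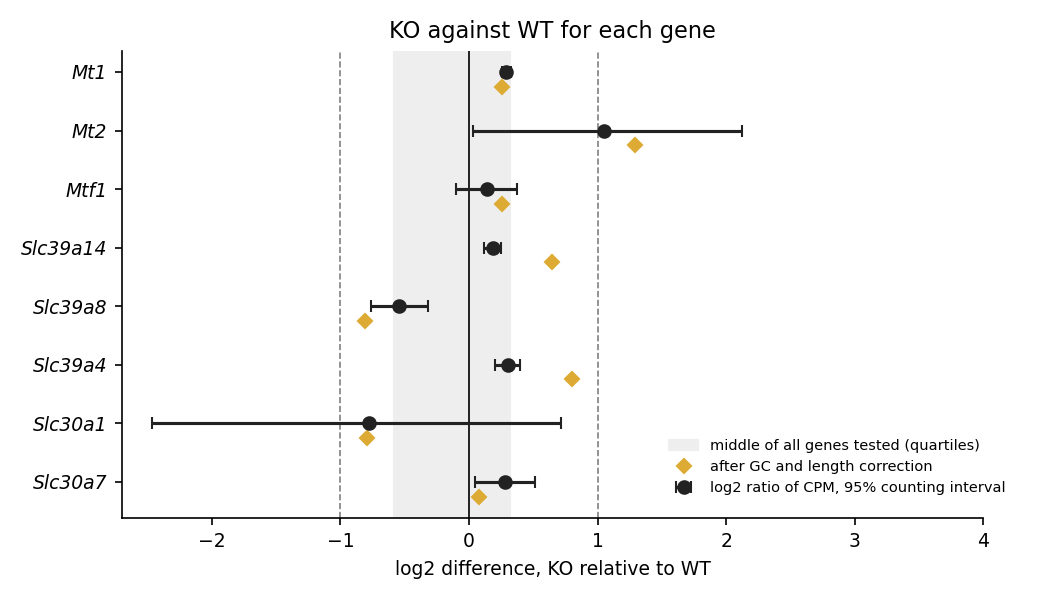
Log2 difference of KO relative to WT for each gene with its exact 95% counting interval (black), and the value corrected for GC content and exon length (yellow); the grey band spans the quartiles of all genes tested, from -0.58 to 0.32, and dashed lines mark 2-fold. Slc39a4 and Slc39a14 move from 0.30 and 0.18 to 0.80 and 0.64 with the correction, and no gene changes sign.

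Mt2 was left out of the order by length because its reads are in doubt as a measure of its level. Per length, the order of levels was Mt1, Slc39a4, Slc39a14, Slc39a8, Mtf1, Slc30a7 and Slc30a1 in both libraries. As CPM per kilobase of merged exon (FPKM), Mt1 stood at 479 in WT and 586 in KO, Slc39a4 at 28.0 and 34.5, and Slc39a14 at 18.0 and 20.5. These 3 were apart from each other and from the rest beyond counting error in both libraries. Slc39a8 stood at 3.13 FPKM in WT (2.86 to 3.43), above Mtf1 at 1.77 (1.58 to 1.98), but in KO it stood at 2.15 (1.90 to 2.43) and its interval overlapped that of Mtf1 at 1.95 (1.72 to 2.19). Mtf1 and Slc30a7, at 1.44 FPKM in WT and 1.75 in KO, overlapped as neighbours in both libraries. Merged exons include rare transcript ends, so a gene with many transcripts is understated on this scale.

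The difference between these libraries went with base composition, and the 8 genes span much of the range. When genes with 100 reads or more were ordered by GC content and cut into 10 equal bins, the median log2 difference went from 0.28 in bin 1, the poorest in GC, to -0.86 in bin 10. Slc39a4, at 56.9% GC, lay in bin 9, where the median gene was at -0.53, whereas Slc39a4 was at 0.30. Slc39a8, at 39.5% GC, lay in bin 1, where the median gene was at 0.28, whereas Slc39a8 was at -0.54. After the median of genes of like GC content and length was taken off, Slc39a4 was at 0.80, Slc39a14 at 0.64 and Slc39a8 at -0.80. Mt1 was at 0.26 and Mtf1 at 0.26 after this correction, and Slc30a7 at 0.078. The 8 genes kept their signs, with 6 above 0 against 50.3% of all genes tested, and a median of 0.26.

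**Figure D5:**
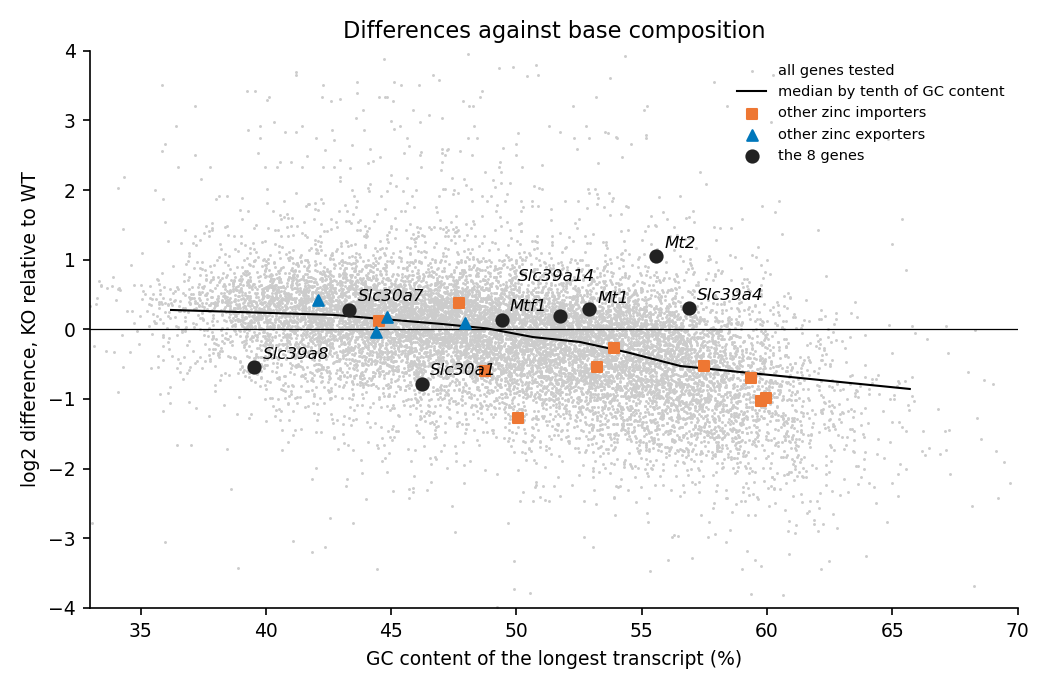
Log2 difference of KO relative to WT against the GC content of a gene's longest transcript, for all genes tested (grey; genes outside the axes not drawn), with the median of each of 10 GC bins (line), the 8 genes (black) and the other zinc importer and exporter genes at 1 CPM or more. Mt1, Slc39a14 and Slc39a4 lie above the line, and Slc39a8 lies below it.

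Among the other zinc importers the KO library was mostly the lower one. Of 11 further Slc39a genes 10 reached 1 CPM, of which 8 were below 0, 6 had an interval below 1 and 1 above 1, with a median log2 difference of -0.57. Of all genes tested 54.1% were below 0, 36.5% had an interval below 1 and 26.7% one above. Slc39a5 (1.51 CPM in WT and 0.762 in KO) and Slc39a7 (1.01 and 0.698) reached 1 CPM only in WT. Their signs thus followed from that filter. The list includes Slc39a7, whose 20 and 11 reads are in doubt because another gene covers most of its exons; without it 7 of 9 were below 0, with a median of -0.60. Slc39a2 and Slc39a13 were the lowest. Slc39a2 had 61 reads in the WT pool and 20 in the KO pool and was 2.42-fold lower (1.44 to 4.23). Slc39a13, which encodes a zinc transporter of the secretory pathway, had 282 and 109 reads and was 2.05-fold lower (1.64 to 2.58), but stood at 0.11 after the GC and length correction, while Slc39a2 stayed at -1.24. Slc39a9, a transporter of the trans-Golgi, was the highest, with 598 and 613 reads and a ratio of 1.29 (1.15 to 1.45), and Slc39a10 followed with a ratio of 1.08 (0.874 to 1.34). With the correction the list's median was -0.15, with 6 of 10 below 0, against 49.5% of all genes tested, and without Slc39a7 it was -0.011. Slc39a14 and Slc39a4 thus lay above this median with and without the correction, and Slc39a8 lay at -0.54 without it, near the median, and at -0.80 with it.

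Slc39a1, the importer gene with the highest level per length in WT, was outside the 2 highest and 2 lowest and was chosen after its values were seen. It had 1942 reads in the WT pool and 1059 in the KO pool, or 41.4 FPKM (39.5 to 43.2) and 28.4 FPKM (26.8 to 30.2). Slc39a4, at 28.0 FPKM (26.7 to 29.3) and 34.5 FPKM (32.9 to 36.2), was below it in WT and above it in KO, with intervals that do not overlap in either library. Slc39a1 was 1.45-fold lower in KO (1.35 to 1.57), and at -0.57 after the correction.

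Among the other zinc exporters differences were small. Of 8 further Slc30a genes 4 reached 1 CPM, with 3 above 0 (45.9% of all genes tested) and a median of 0.13. Only Slc30a5 had an interval above 1 (26.7% of all genes tested), and none had one below 1 (36.5%). Slc30a5 encodes ZnT5, which works in the early secretory pathway as ZnT7 does, and its 527 and 562 reads gave a ratio of 1.34 (1.19 to 1.52). Slc30a6, which encodes the partner of ZnT5, had 167 and 150 reads and a ratio of 1.13 (0.903 to 1.42). Slc30a10, a manganese exporter of liver, had 351 and 295 reads and a ratio of 1.06 (0.905 to 1.24), and Slc30a9 had 775 and 599 reads and a ratio of 0.975 (0.875 to 1.09). The pancreatic islet gene Slc30a8 had 1 and 3 reads. Slc30a4 had 0 in both libraries, with intervals up to 0.186 CPM in WT and 0.234 in KO.

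Genes reported as targets of MTF1 or of metal stress were mostly lower in KO, whereas Mt1 was higher. The list was not split by the direction in which a gene is regulated, and MTF1 activity was not measured. Of 10 such genes 9 reached 1 CPM, 6 had an interval below 1 (36.5% of all genes tested) and none above (26.7%), and the median log2 difference was -0.42, or -0.23 after the correction. Csrp1, a LIM domain protein gene, had 2946 and 1276 reads and was 1.83-fold lower in KO (1.71 to 1.96). Txnrd2, which encodes mitochondrial thioredoxin reductase, had 148 and 61 reads and was 1.92-fold lower (1.42 to 2.64); corrected, it stood at -0.42. The highest of the list were Slc40a1, the iron exporter ferroportin, with a ratio of 1.14 (0.998 to 1.30), and Slc39a10, which is also counted among the importers.

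The known inducers of metallothioneins in liver were represented by 2 lists. In the glucocorticoid response list 7 of 10 genes were below 0 (54.1% of all genes tested), 6 with an interval below 1 (36.5%) and 3 with one above 1 (26.7%), with a median of -0.44, or -0.091 after the correction. Ddit4 was 2.30-fold lower in KO (2.11 to 2.50) on 2128 and 735 reads. The clock gene Per1 was 2.21-fold lower (2.04 to 2.39) on 2401 and 862 reads, but corrected it stood at 0.0081. Sgk1, a kinase gene, was 1.33-fold higher (1.24 to 1.41) and Errfi1, a feedback inhibitor of the EGF receptor, 1.32-fold higher (1.28 to 1.36).

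In the IL-6 and STAT3 response list 10 of 15 genes had an interval above 1 (26.7% of all genes tested) and 5 below 1 (36.5%), with a median of 0.24 with and without the correction. Hamp, the gene of the iron hormone hepcidin, was 2.13-fold higher in KO (2.07 to 2.20), and Saa1, an acute-phase protein gene, 1.75-fold higher (1.69 to 1.81). The lowest were Il6ra, the receptor for interleukin-6, with 767 and 165 reads and 3.69-fold lower (3.11 to 4.39), and its feedback inhibitor Socs3, 2.93-fold lower (2.84 to 3.04), which went from -1.55 to -0.63 on the log2 scale with the correction. The list spanned log2 differences from -1.88 to 1.09.

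Copper, the other metal that metallothioneins bind, was followed through 10 genes. Of these 7 were above 0 (45.9% of all genes tested), 6 with an interval above 1 (26.7%) and 2 below (36.5%), with a median of 0.21, or 0.14 after the correction. Atp7b, the hepatocyte copper exporter, had 158 and 173 reads and a ratio of 1.38 (1.11 to 1.72), and Cp, which encodes the plasma copper protein ceruloplasmin, 13759 and 14338 reads and a ratio of 1.31 (1.28 to 1.35). Slc31a2, a copper transporter gene, was 1.71-fold lower in KO (1.51 to 1.96) on 731 and 338 reads. Cox17, a mitochondrial copper chaperone, had a ratio of 0.883 (0.581 to 1.33).

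With 2 libraries, likeness of pattern comes down to the size of 1 difference. Among the genes at 100 CPM or more in both libraries that lay closest to the mean of Mt1 and Mt2, a log2 difference of 0.67, were Inmt at 0.66 and Selenop at 0.66. Inmt had 802 CPM in WT and 1269 in KO, and Selenop had 3094 and 4897. That mean rests on the 14 and 23 reads of Mt2, and Mt1 alone lay at 0.29.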

How the data were processed

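Liver RNA of 2 pools, 1 per genotype, was analysed; groups come from the genotype labels. TopHat2 and HTSeq 0.6.1 are the tools, and GRCm38 the build, named per the submitters' processing notes. For the annotation release and the strand setting, the sources used here name nothing. The tables deposited by the authors are named for FPKM but hold whole-number read counts per gene (2707 genes at exactly 1 read in WT), and were read as raw counts. Of 52845 entries 209 name no annotated gene; left out of all totals, they made up 0.652% of the WT counts and 0.496% of the KO counts. CPM used totals over all 52636 Ensembl genes, of which 52489 were found in GENCODE M21, the source of symbols, coordinates and exon lengths.

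Differences are log2 ratios of CPM without a pseudocount, among genes at 1 CPM or more in either library; a gene with 0 reads in 1 library was set against a floor of 3 reads. Intervals of ratios are exact Clopper-Pearson intervals conditional on the reads of both libraries, and those of levels exact Poisson intervals, both at 95%. Reads are not independent molecules, so they cover counting error only. The GC and length correction subtracted a bin median (10 GC by 4 length bins, from genes with at least 100 reads), and so removes biological differences tied to composition too. The 8 genes and the lists were chosen with earlier results of these data known. Named genes are the 8, Mt3, Mt4, Gbp5, the 2 highest and 2 lowest of each list at 1 CPM or more, and the 3 abundant genes closest to the mean of Mt1 and Mt2, of which 1 is not reported here; other named genes were chosen after their values were seen. Steps were tested on simulated counts. Tools were Python 3.11.15, numpy 2.4.6, pandas 2.3.3, scipy 1.17.1, matplotlib 3.10.9, with R 4.3.3 and edgeR 4.0.16 used only to obtain TMM factors.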

Additional observations from a re-analysis of the deposited data

How the results depend on the processing

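Every alternative was fixed with earlier results of these data known, except leaving out Mt2 or Slc39a7, which was chosen after seeing the data. The median log2 difference was 0.22 to 0.33 under 9 alternatives, over 6 genes at 5 CPM, where Mt2 and Slc30a1 were left out, and over 8 otherwise; without Mt2 it was 0.18. No gene changed sign where it had a value. With a pseudocount of 1 CPM, a filter at 5 CPM or Mt2 left out, 0 genes were 2-fold higher. Of all genes, 1748 were 2-fold lower and 651 higher, so 72.9% of them were lower. After the GC and length correction 949 were lower and 727 higher (56.6% lower). Without a filter these counts were 2779 and 2360 (54.1% lower). The higher genes numbered 295 with the pseudocount and 194 at 5 CPM, where 86.2% of the genes past 2-fold were lower. Lists of other zinc importers, MTF1 and metal response, and glucocorticoid response had medians of -0.57, -0.42 and -0.44, and of -0.15, -0.23 and -0.091 after the correction. Totals without the 50 most abundant genes shifted all genes by 0.10, and Mt1 to 0.39. Depth limits Mt2 and Slc30a1 most. No paired analysis was possible because each genotype has 1 library.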

Other observations

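Slc39a7, which encodes the zinc transporter ZIP7 of the endoplasmic reticulum, had only 20 reads in the WT pool and 11 in the KO pool (0.390 and 0.270 FPKM). Of its 2584 exonic bases 2084, or 80.7%, are also exon of Gm20427, a gene annotated on the same strand. Like Mt2, it is thus a zinc gene whose low count goes with a shared annotation, and its counts are in doubt as a level. The part of the overlap was not tested. Among the other 23 zinc importer and exporter genes, the highest such cover was 16.0%, for Slc30a7; that of Slc30a1, with 13 and 6 reads, was 8.92%.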
